A study of Homo sapiens with 16 samples.

Results

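The RNAs described here are 9 long noncoding RNAs linked to hypoxia or cell stress: *NEAT1*, *MALAT1*, *MIR210HG*, *GAS5*, *SNHG1*, *SNHG12*, *ZFAS1*, *EPB41L4A-AS1* and *LUCAT1*. They were chosen by gene symbol, with earlier results of these data known. Of the 9, 8 had values in both experiments, among 13559 genes listed in the first and 14024 in the second. *MIR210HG*, the host transcript of the hypoxia-induced microRNA miR-210, has no row in either table used here and is not analysed further. The cells were LN229, an established human glioblastoma (GBM) line, grown in complete medium under normal oxygen (the regular condition) or in a medium poor in glucose, glutamine and serum under low oxygen (the ischemic condition). The first experiment compared untreated cells of the 2 cultures. The second compared the vehicle DMSO, VX745, an inhibitor of the kinase p38α, and MK25, an inhibitor of its substrate kinase MK2, in both cultures. Each of the 8 groups holds 2 libraries, which makes 16 in all. All groups come from one cell line, which the study did not authenticate, and the labels give neither the dose of the inhibitors nor the time in the ischemic condition.

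Long noncoding RNAs act as RNA without coding for a protein. *NEAT1* is the scaffold of paraspeckles, nuclear bodies that hold RNA-binding proteins, and *MALAT1* is an abundant RNA of nuclear speckles, where splicing factors gather. *GAS5*, *SNHG1*, *SNHG12*, *ZFAS1* and *EPB41L4A-AS1* are host genes, whose introns carry small nucleolar RNAs (snoRNAs) that guide the modification of ribosomal and other RNA. Their spliced RNA is generally short-lived, and that of several hosts is removed by nonsense-mediated decay when it is translated. *LUCAT1* is known as an RNA induced by oxidative stress and by the transcription factor NRF2.

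Promoter sequences are shown for *LUCAT1*, the member with the largest change in ischemia, for *ZFAS1* and *SNHG12*, the hosts with the largest and smallest change, and for *GAS5*, the host whose levels followed *ZFAS1* most closely. They are the 250 bases before and the 50 bases after the start of a transcript, from RefSeq on GRCh38.p14, printed on the strand of the gene. For *LUCAT1* and *GAS5* that start is the 5′ end of the annotated gene, but for *ZFAS1* it lies 464 and for *SNHG12* 1110 bases inside the gene, so these windows do not cover the gene's outermost start. An entry was found for 8 of the 9 RNAs, all but *NEAT1*, and *MALAT1* has 2. In *LUCAT1* (chr5:91314353-91314652, minus strand) the capitals mark an AP-1 site (TGAGTCA) that lies inside an antioxidant response element (ARE, GCNNNGTCA). In *ZFAS1* (chr20:49278392-49278691, plus strand) and *SNHG12* (chr1:28581824-28582123, minus strand) they mark the core of the hypoxia response element (HRE, ACGTG or GCGTG), searched on both strands, and *GAS5* (chr1:173868996-173869295, minus strand) holds none of these words.
LUCAT1: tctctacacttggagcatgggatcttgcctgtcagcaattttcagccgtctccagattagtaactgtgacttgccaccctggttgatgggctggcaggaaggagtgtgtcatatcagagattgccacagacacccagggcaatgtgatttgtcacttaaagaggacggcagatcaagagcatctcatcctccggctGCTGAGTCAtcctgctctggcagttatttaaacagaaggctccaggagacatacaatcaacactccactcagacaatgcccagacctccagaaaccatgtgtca
ZFAS1: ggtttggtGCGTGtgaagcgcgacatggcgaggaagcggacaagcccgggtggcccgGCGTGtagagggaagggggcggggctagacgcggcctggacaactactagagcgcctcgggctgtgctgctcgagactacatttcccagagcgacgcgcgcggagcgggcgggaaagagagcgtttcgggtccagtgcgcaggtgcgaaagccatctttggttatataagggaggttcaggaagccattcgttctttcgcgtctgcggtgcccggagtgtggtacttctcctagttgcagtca
SNHG12: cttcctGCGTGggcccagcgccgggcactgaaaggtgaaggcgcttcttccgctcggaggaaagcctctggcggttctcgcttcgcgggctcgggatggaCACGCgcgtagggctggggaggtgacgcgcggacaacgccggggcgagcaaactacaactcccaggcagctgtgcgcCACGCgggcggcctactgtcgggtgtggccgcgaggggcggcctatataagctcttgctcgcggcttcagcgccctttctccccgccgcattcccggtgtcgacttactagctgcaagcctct
GAS5: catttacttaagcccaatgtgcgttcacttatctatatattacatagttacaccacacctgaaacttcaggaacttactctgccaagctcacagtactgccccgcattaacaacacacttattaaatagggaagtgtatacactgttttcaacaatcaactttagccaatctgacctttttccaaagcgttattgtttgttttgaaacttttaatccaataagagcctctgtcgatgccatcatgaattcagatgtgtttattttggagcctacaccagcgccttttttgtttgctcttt
The AP-1 word of *LUCAT1* starts 52 bases before the transcript start, and the ARE that contains it starts 54 bases before. Of 35116 promoters of 300 bases, 4.95% hold the AP-1 word, 13.3% the ARE and 48.4% the HRE core. The HRE core occurs 3 times in *SNHG12*, 2 times in each of *ZFAS1*, *SNHG1*, *MIR210HG* and the upstream *MALAT1* entry, and 1 time in *EPB41L4A-AS1* and the second *MALAT1* entry. The upstream *MALAT1* entry also holds 2 ARE words. The word TTGCATCA, to which C/EBP and ATF factors bind together, occurs in none of the members and in 0.866% of all promoters. These matches describe letters only, and a word that was not found says nothing about the factor.

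Values are log2 normalized CPM (read counts scaled by the authors). Since the 2 experiments were normalized apart, no level is set against one of the other experiment. The scaling holds a factor beyond the total of reads on listed genes, and this factor differed between groups. In ischemic culture *SNHG1* was at 7.45 with 4296 of 27239609 reads in DMSO replicate 1. In MK25 replicate 1 it was at 7.25 with 5599 of 37562668 reads. Part of the differences between groups therefore rests on this factor, and a scaling by reads alone was not tested. The listed genes held 22346073 to 28373993 reads per library in the first experiment and 20122017 to 37562668 in the second. The chi-square between replicates was 3.29 to 9.34 per gene, above the 1 of counting noise alone. The 10 most abundant genes held 5.66% to 6.45% of the reads in ischemic and 4.23% to 4.65% in regular libraries. *VIM*, *CD44*, *NES*, *EGFR*, *S100B* and *SOX2* were detected in every library. The astrocyte marker *GFAP* lay between −0.36 and 1.06 and the oligodendrocyte lineage marker *OLIG2* between 0.94 and 3.09. The markers of immune, epithelial and endothelial cells (*PTPRC*, *EPCAM* and *PECAM1*) are not listed. In such bulk samples, fewer cells that express an RNA and less of it per cell cannot be told apart. Nothing in the labels says that the 2 libraries of a group came from separate cultures, so p-values measure the spread between these libraries only.

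**Figure D1:**
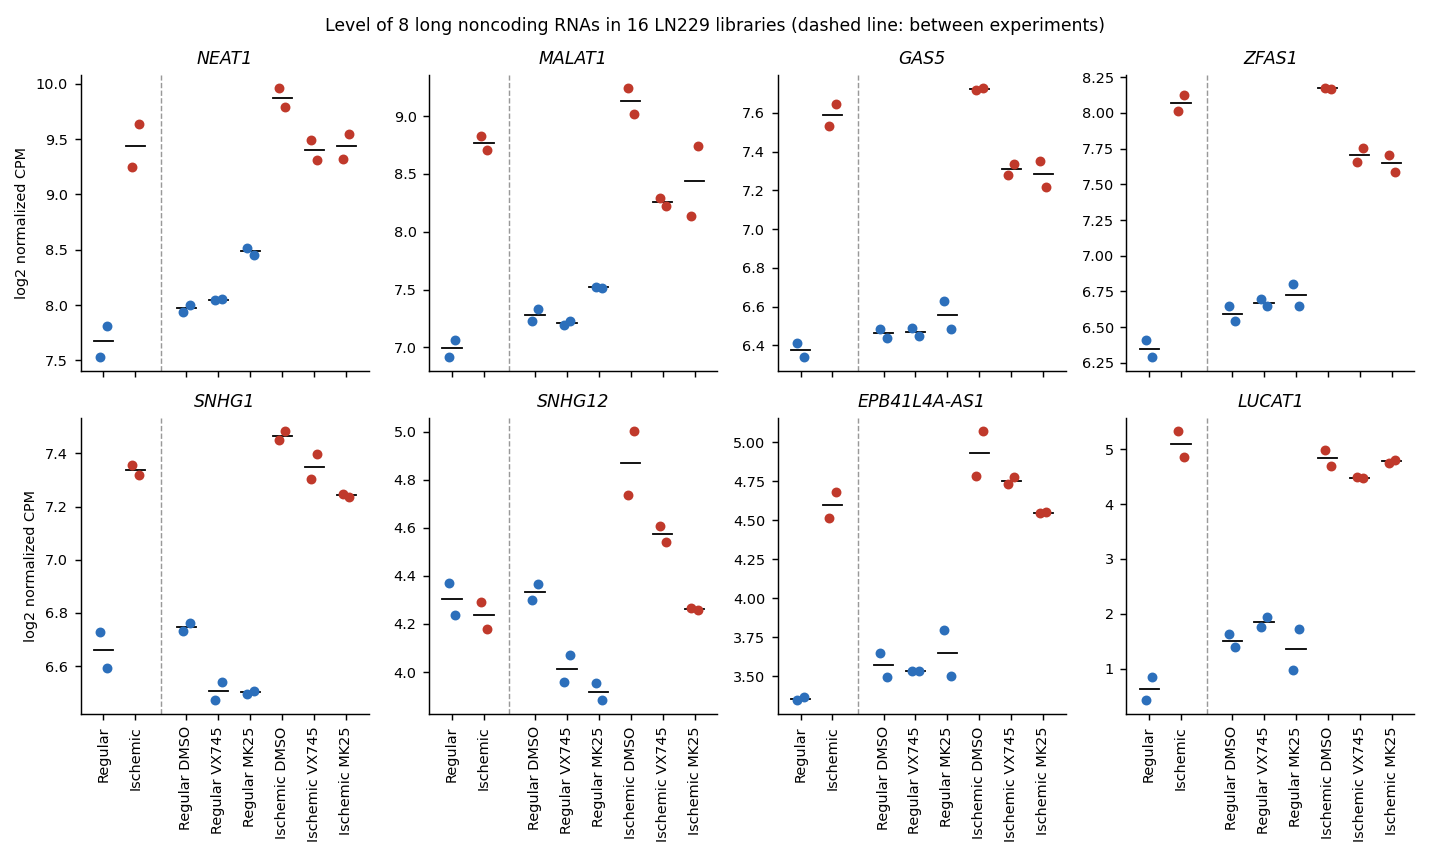
Level of the 8 listed RNAs in each of the 16 libraries (log2 normalized CPM, points) by group, with the experiments drawn apart because they were normalized apart. The ischemic libraries sit above the regular libraries for every RNA but *SNHG12*, whose untreated groups overlap and whose MK25-treated ischemic libraries lie below the regular DMSO libraries.

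Ischemia raised 7 of the 8 RNAs in untreated cells and all 8 in DMSO-treated cells, and none fell, by limma, by voom or at an unadjusted p under 0.05 (0 of 8 each). Among all genes, 35.2% rose in untreated and 34.4% in DMSO-treated cells, and 35.2% fell in each (adjusted p under 0.05 from limma). The median log2 fold change of the 8 was 1.48 and 1.47, against −0.01 over all genes in both experiments. A rise of at least 2-fold was found for 6 of the 8 in each experiment, against 11.3% and 9.03% of all genes. Because the members were chosen with earlier results of these data known, the comparison with all genes is limited. Together the 8 RNAs took 0.0663% to 0.0697% of the reads in regular and 0.170% to 0.182% in ischemic untreated libraries.

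*LUCAT1* rose most. It is annotated at chromosome 5, 91302986 to 91314402, on the minus strand of GRCh38.p14, and was at 0.42 and 0.84 in the regular libraries, which is 31 and 48 reads. In the untreated ischemic libraries it was at 5.34 and 4.86, or 1112 and 611 reads. These groups lie far apart, and the log2 fold change was 4.46 ± 0.19 (standard error), or 22.1-fold (adjusted p = 8.78e-10 by limma), with 0.361% of genes changed by more. In the second experiment *LUCAT1* was at 1.63 and 1.39 with DMSO in regular culture and at 4.99 and 4.70 in ischemic culture. It rose there by 3.33 ± 0.18 (adjusted p = 2.22e-11), and 0.799% of genes changed by more.

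The 2 nuclear scaffold RNAs changed by similar amounts. They are neighbours on chromosome 11, *NEAT1* at 65422798 to 65445540 and *MALAT1* at 65497738 to 65506516, both on the plus strand. *NEAT1* was at 7.53 and 7.82 in regular and at 9.25 and 9.64 in ischemic untreated libraries. *MALAT1* was at 6.92 and 7.07 in regular and at 8.83 and 8.70 in ischemic untreated libraries. Neither RNA overlapped between the cultures. The log2 fold change was 1.77 for *NEAT1* (95% confidence interval 1.51 to 2.02, adjusted p = 5.47e-08 from limma) and 1.77 for *MALAT1* (1.61 to 1.94, adjusted p = 9.60e-10). With DMSO the rises were 1.90 and 1.85, with adjusted p = 5.26e-13 and 4.10e-10. The long isoform of *NEAT1* and *MALAT1* end in a triple helix rather than a poly(A) tail, and the libraries were primed on poly(A), so the share of each RNA that was captured is not known.

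The values of the 5 snoRNA hosts were spread widely, and 4 of the 5 rose in untreated cells. *ZFAS1*, annotated at chromosome 20, 49278178 to 49289260, with 3 snoRNA genes inside, rose most of the 5. It was at 6.41 and 6.29 in regular and at 8.02 and 8.13 in ischemic untreated libraries, and it rose by 1.72 ± 0.07 (standard error) on the log2 scale (adjusted p = 9.18e-10 by limma). *GAS5*, at chromosome 1, 173863901 to 173869045, holds 11 snoRNA genes, the most of the members. Its levels were 6.41 and 6.34 in regular and 7.53 and 7.65 in ischemic untreated libraries, and it rose by 1.21 (adjusted p = 1.77e-08). *EPB41L4A-AS1*, at chromosome 5, 112160526 to 112162501, holds the single snoRNA gene *SNORA13*. It rose by 1.24 (adjusted p = 5.76e-07), from 3.35 and 3.37 to 4.51 and 4.68.

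*SNHG1* and *SNHG12* changed least. *SNHG1*, at chromosome 11, 62851978 to 62855885, with 9 snoRNA genes, was at 6.73 and 6.59 in regular and at 7.35 and 7.32 in ischemic untreated libraries, and it rose by 0.68 (adjusted p = 3.21e-06 from limma). *SNHG12*, at chromosome 1, 28578538 to 28582983, with 4 snoRNA genes, was at 4.37 and 4.24 in regular and at 4.29 and 4.18 in ischemic untreated libraries. These ranges overlap, and the difference was −0.07 with a 95% confidence interval from −0.29 to 0.15 (adjusted p = 0.569). In the second experiment *SNHG12* was at 4.30 and 4.36 with DMSO in regular and at 4.74 and 5.00 in ischemic culture, and there it rose by 0.54 (0.34 to 0.73, adjusted p = 4.81e-05). These 2 intervals of *SNHG12* do not overlap. The experiments were fitted apart, and whether the change differs between them was not tested. The other hosts rose in both, with DMSO by 1.58 for *ZFAS1*, 1.35 for *EPB41L4A-AS1*, 1.26 for *GAS5* and 0.72 for *SNHG1*, and their adjusted p lay between 6.23e-13 and 4.72e-09.

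**Figure D2:**
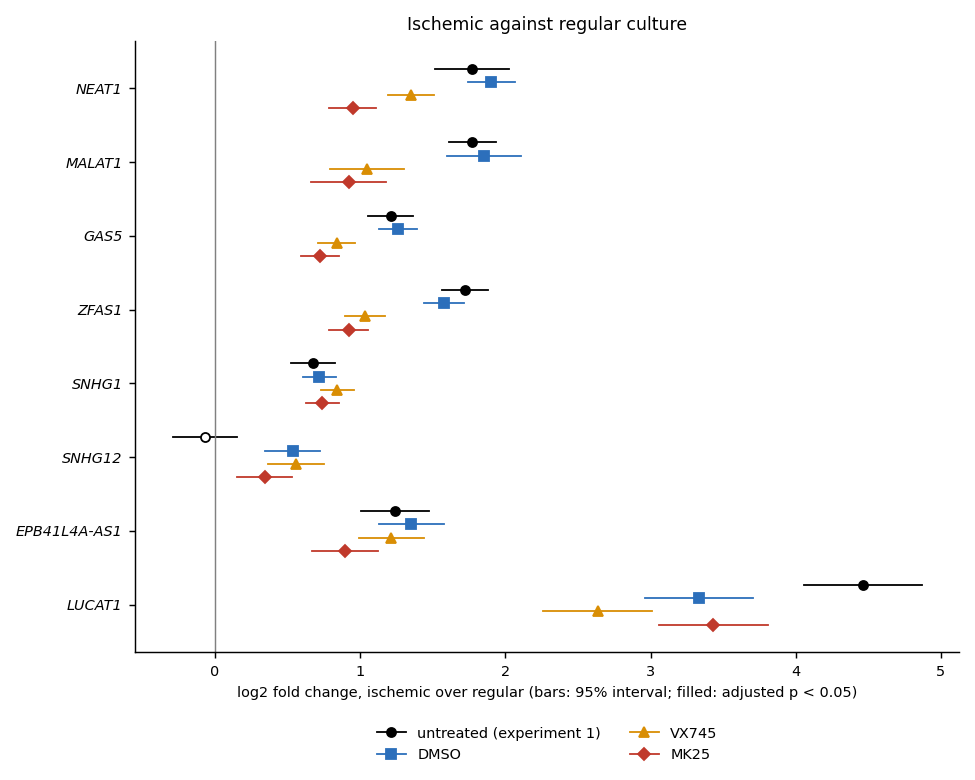
Log2 fold change of each RNA in ischemic against regular culture (points) with its 95% confidence interval from limma (bars, not adjusted for the number of genes), for untreated, DMSO, VX745 and MK25 libraries. *LUCAT1* lies between 2.64 and 4.46 and is the highest in all 4 comparisons, and the interval of *SNHG12* spans 0 only in untreated cells.

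The same contrast was made within each inhibitor. With VX745 all 8 RNAs were higher in ischemic culture, against 34% of all genes, and 5 of them by at least 2-fold, against 9.28%. With MK25 all 8 were again higher, against 33.5% of all genes, but only *LUCAT1* by at least 2-fold, against 8.56%. Without ischemic MK25 replicate 1 that count was 3, with *NEAT1* at 1.06 and *MALAT1* at 1.22, and without regular MK25 replicate 1 it was 2, with *EPB41L4A-AS1* at 1.05. With VX745 it was 3 after quantile normalization and 4 with median centring. Several values lay close to 2-fold, which is 1 on the log2 scale. With VX745 *MALAT1* (1.05) and *ZFAS1* (1.03) were just above it. With MK25 *NEAT1* (0.95), *MALAT1* (0.92), *ZFAS1* (0.92) and *EPB41L4A-AS1* (0.90) were just below it. The median rise was 1.04 with VX745 and 0.91 with MK25. The lowest was 0.56 with VX745 and 0.34 with MK25, both for *SNHG12*, and the highest was 2.64 and 3.43, both for *LUCAT1*.

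The inhibitors were then compared with DMSO, and both comparisons use the same DMSO libraries, which also enter the contrast of the cultures above. In regular culture VX745 changed none of the 8 RNAs, against 0.335% of all genes in either direction. That share rests on 47 genes, and without regular DMSO replicate 1 it was 2.47% (346 genes), where *SNHG1* was called (−0.26, adjusted p = 0.0472 from limma). Without any one of the other 3 libraries compared, 10 to 13 genes were called. By unadjusted p under 0.05 from limma 2 of the 8 were lower, and voom on the recovered reads called 0. These 2 were *SNHG1*, at −0.24 (adjusted p = 0.061), and *SNHG12*, at −0.32 (adjusted p = 0.129). *NEAT1* showed a difference of 0.08, with an interval from −0.08 to 0.24, and *MALAT1* one of −0.07, with an interval from −0.33 to 0.19.

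In ischemic culture VX745 lowered 5 of the 8 RNAs and raised none, where 14.9% of all genes fell and 14% rose. *MALAT1* was at 9.24 and 9.02 with DMSO and at 8.30 and 8.22 with VX745, and it fell by 0.87 on the log2 scale (standard error 0.12, adjusted p = 6.99e-05 from limma). It was the one RNA that fell by at least 1.5-fold, against 0.906% of all genes. *NEAT1* was at 9.96 and 9.79 with DMSO and at 9.49 and 9.31 with VX745, and it fell by 0.47 (adjusted p = 0.000258). Both VX745 libraries lay below both DMSO libraries for each RNA. Among the hosts, *ZFAS1* fell by 0.47 (adjusted p = 5.91e-05), from 8.18 and 8.17 to 7.65 and 7.76. *GAS5* fell by 0.42 (adjusted p = 0.000121), from 7.72 and 7.73 to 7.28 and 7.34. *SNHG12* fell by 0.29 (adjusted p = 0.022), a call that was lost without ischemic DMSO replicate 2 (−0.16, adjusted p = 0.285) and without either VX745 library. At an unadjusted p under 0.05 and by voom 0 of 8 were higher and 6 lower. The 2 sets differ, since the unadjusted p added *SNHG1* and voom added *LUCAT1*. The values were −0.12 for *SNHG1* (adjusted p = 0.11), −0.17 for *EPB41L4A-AS1* (0.238) and −0.36 for *LUCAT1* (0.142). For *LUCAT1* the voom fit gave −0.35 with an adjusted p of 0.0126.

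MK25 lowered 7 of the 8 RNAs in ischemic culture and raised none, where 22% of all genes fell and 19.8% rose. *MALAT1* was at 8.14 and 8.74, which are the 2 most distant replicates of any group for that RNA (SD 0.43), and it fell by 0.69 (standard error 0.12, adjusted p = 0.000258 from limma). It fell by 0.99 without MK25 replicate 2 and by 0.39 without replicate 1, and it passed the test both times. *SNHG12* was at 4.27 and 4.26 with MK25, below the lower DMSO library at 4.74, and it fell by 0.61 (adjusted p = 5.45e-05). These 2 RNAs were the ones that fell by at least 1.5-fold, against 2.65% of all genes. *ZFAS1* was at 7.71 and 7.59 and fell by 0.52 (adjusted p = 7.59e-06). *GAS5* was at 7.35 and 7.22 and fell by 0.44 (adjusted p = 2.94e-05). At an unadjusted p under 0.05 and by voom 0 of 8 were higher and 7 lower. In every host but *SNHG12*, both ischemic MK25 libraries still lay above all regular libraries of the second experiment. *NEAT1* was at 9.32 and 9.55 and fell by 0.44 (adjusted p = 0.000227), but after quantile normalization the difference was −0.18 (adjusted p = 0.0894). *EPB41L4A-AS1* fell by 0.38 (adjusted p = 0.00947), a call lost without ischemic DMSO replicate 2 (−0.24, adjusted p = 0.157). *SNHG1* fell by 0.22 (adjusted p = 0.00302), and quantile normalization gave −0.10 (adjusted p = 0.17). *LUCAT1* was at 4.76 and 4.81, inside the DMSO range of 4.70 to 4.99, and differed by −0.06 with an interval from −0.43 to 0.31 (adjusted p = 0.815).

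In regular culture the MK25 values had both signs. *NEAT1* was at 7.97 ± 0.04 (SD, n = 2) with DMSO and at 8.51 and 8.46 with MK25, and it rose by 0.51 (adjusted p = 0.000246 from limma). It was 1 of 8 RNAs that rose, against 7% of all genes. *SNHG12* fell by 0.42 (adjusted p = 0.00609), from 4.30 and 4.36 to 3.95 and 3.88, and *SNHG1* fell by 0.25 (adjusted p = 0.00593), from 6.73 and 6.76 to 6.50 and 6.51. These 2 of 8 stand against 5.21% of all genes that fell, and the call of *SNHG12* was lost without regular DMSO replicate 2 (−0.38, adjusted p = 0.0557) and that of *SNHG1* with only the groups compared in the fit (adjusted p = 0.0577). *LUCAT1* was at 0.98 and 1.72 with MK25, on either side of the DMSO libraries, and differed by −0.16 (adjusted p = 0.608). Its level there rests on 40 and 74 reads. Without MK25 replicate 2 the difference was −0.53 (adjusted p = 0.0372).

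**Figure D3:**
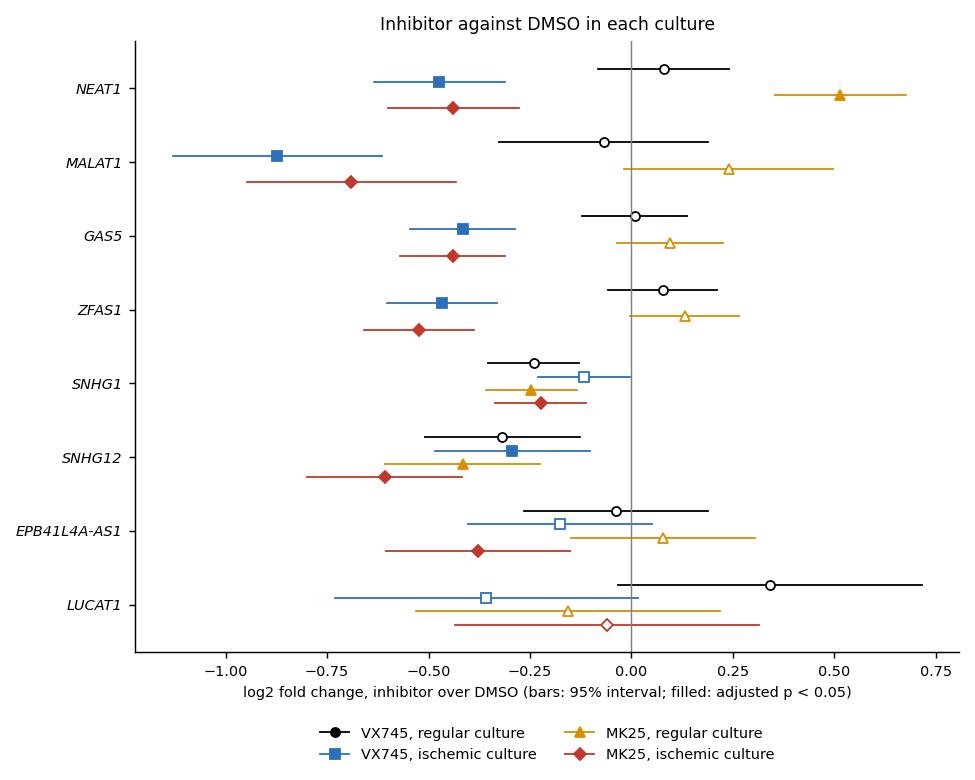
Log2 fold change of each RNA with VX745 or MK25 against DMSO in regular and in ischemic culture (points), with 95% confidence intervals from limma (bars, not adjusted for the number of genes). In ischemic culture all 8 values lie below 0 for both inhibitors, from −0.87 to −0.06, and in regular culture they lie on both sides of 0, from −0.42 to 0.51.

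Whether an inhibitor acted differently in the 2 cultures was tested with an interaction term, the difference in ischemic minus that in regular culture. For VX745 it was below 0 and passed the test for *MALAT1* (−0.80, adjusted p = 0.00755 from limma), *NEAT1* (−0.55), *ZFAS1* (−0.54) and *GAS5* (−0.42). These are 4 of 8, against 6% of all genes. For MK25 it passed for these 4 and for *EPB41L4A-AS1*, 5 of 8 against 13.9% of all genes, and it was largest for *NEAT1* (−0.95, adjusted p = 1.12e-05), which MK25 raised in regular and lowered in ischemic culture. Without a trend of the variance the VX745 calls were lost for *NEAT1* (adjusted p = 0.0612), *MALAT1* (0.0899) and *GAS5* (0.0524). The MK25 call of *EPB41L4A-AS1* was lost in 7 of 15 alternatives, 5 of which left out regular DMSO replicate 2, regular MK25 replicate 1, ischemic DMSO replicate 2 or either ischemic MK25 replicate, with values from −0.46 to −0.31. *SNHG1*, *SNHG12* and *LUCAT1* passed for neither inhibitor. *SNHG1* had 0.12 with VX745 and 0.02 with MK25, and *SNHG12* had 0.02 and −0.19. *LUCAT1* had −0.70 with VX745, with an interval from −1.23 to −0.17 and an adjusted p of 0.0798.

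VX745 and MK25, which act on successive kinases of one pathway, were compared directly as 1 pair in each culture. The study's methods give them at different concentrations, so compound and dose cannot be told apart. In regular culture *NEAT1* was higher with MK25 by 0.44 (adjusted p = 0.00167 from limma), the 1 call among 8, against 3.96% of all genes. In ischemic culture *SNHG12* was lower with MK25 by a log2 difference of −0.31 (adjusted p = 0.0217), also 1 of 8, against 10.2%. The *SNHG12* call was lost without any one of the 4 libraries compared (−0.35 to −0.28, adjusted p = 0.0731 to 0.16), and the *NEAT1* call without a trend of the variance (adjusted p = 0.0569). For *NEAT1* in ischemic culture the difference was 0.03, with an interval from −0.13 to 0.20, for *GAS5* it was −0.02 (−0.15 to 0.11), and for *ZFAS1* −0.06 (−0.19 to 0.08). The interval was wider for *MALAT1*, from −0.08 to 0.44 around 0.18. This value rests on the ischemic MK25 libraries, being 0.48 (adjusted p = 0.000968 from limma) without replicate 1 and −0.12 (adjusted p = 0.417) without replicate 2. *LUCAT1* differed by −0.50 in regular culture (adjusted p = 0.127), and by −0.87 (adjusted p = 0.00225) without regular MK25 replicate 2. In ischemic culture it differed by 0.30 (adjusted p = 0.28), which voom called (adjusted p = 0.032).

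The RNAs were also ordered by level over the 6 groups of the second experiment. *NEAT1*, *MALAT1*, *GAS5*, *SNHG1*, *ZFAS1*, *EPB41L4A-AS1* and *LUCAT1* had their 3 regular groups below their 3 ischemic groups. In all 8 RNAs the ischemic DMSO group was the highest. How many of all genes share these orders was not counted, so they only describe the members. *NEAT1* ran from 7.97 ± 0.04 (SD, n = 2) with DMSO in regular culture, through 8.05 ± 0.00 with VX745 and 8.48 ± 0.04 with MK25, to 9.40 ± 0.13 with VX745 and 9.43 ± 0.16 with MK25 in ischemic culture and 9.87 ± 0.12 with DMSO there. Only the ischemic VX745 and MK25 groups overlapped in that order, and the same 2 groups overlapped for *MALAT1*, *GAS5* and *ZFAS1*. The 3 regular groups overlapped one another for *GAS5* and for *EPB41L4A-AS1*. In *SNHG12* the ischemic MK25 group, at 4.26 ± 0.01, lay below the regular DMSO group, at 4.33 ± 0.04. In *LUCAT1* the regular groups ran from 1.35 ± 0.53 with MK25 through 1.51 ± 0.17 with DMSO to 1.85 ± 0.13 with VX745.

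The RNAs whose levels followed each other most closely were 2 hosts. *GAS5* and *ZFAS1* had a Pearson correlation of 0.999 over the 12 libraries of the second experiment, 0.910 over the 6 regular and 0.996 over the 6 ischemic libraries, and each was the gene most like the other among 12270 genes. *SNHG1* and *SNHG12* reached 0.969 over the regular and 0.916 over the ischemic libraries, and *NEAT1* and *MALAT1* 0.923 and 0.965. Between *LUCAT1* and *SNHG1* it was 0.950 over all 12 libraries, but −0.09 and 0.10 within the cultures. The genes most like the other members were *LOXL2-AS1* for *NEAT1* (0.997), *SERINC1* for *MALAT1* (0.992), *KLHL21* for *SNHG1* (0.992), *HHIP* for *SNHG12* (0.971), *EIF4EBP1* for *EPB41L4A-AS1* (0.993) and *ELAPOR2* for *LUCAT1* (0.995). The points share the contrast of the cultures and the scaling of each library, so these values are a description of 12 libraries.

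Several members overlap another gene, and the kit does not mark strand, so their reads cannot be told apart where they overlap. *GAS5* overlaps *ZBTB37*, which rose by 0.78 in untreated and 0.87 in DMSO-treated ischemic cells. *SNHG12* overlaps *TRNAU1AP* only in the short stretch from 28578538 to 28578545. *TRNAU1AP* rose by 0.98 (adjusted p = 4.60e-07 from limma) in untreated cells, where *SNHG12* differed by −0.07. *EPB41L4A-AS1* lies within *EPB41L4A*, which rose by 0.56 and 0.52. *SNHG1* starts 224 bases from the amino acid transporter subunit gene *SLC3A2*, which rose by 1.03 and 0.94. *ZFAS1* lies 121 bases from *ZNFX1*, which rose by only 0.17 in untreated cells and fell by 0.14 with DMSO. *RASSF7*, 1632 bases from the unlisted *MIR210HG*, rose by 1.95 and 1.16. The lncRNA *TALAM1*, antisense to *MALAT1*, is not listed.

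The other snoRNA host RNAs did not move in one direction. Of 22 such RNAs, 18 were listed, and in untreated ischemic cells 5 rose and 11 fell (61.1%, against 35.2% of all genes), with a median log2 fold change of −0.39. With DMSO 6 rose (33.3%, against 34.4%) and 5 fell (27.8%, against 35.2%), with a median of −0.01. *SNHG7* was highest (0.98 and 1.28) and *SNHG4* lowest (−2.54 and −1.99), and *SNHG5*, *SNHG8* and *SNHG29* rose in both experiments. In ischemic culture VX745 lowered 8 (44.4%) and raised 2 of the 18, against 14.9% of all genes lower, and MK25 lowered 10 (55.6%) and raised 2, against 22%, with *SNHG15* falling most with MK25, by 1.02.

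**Figure D4:**
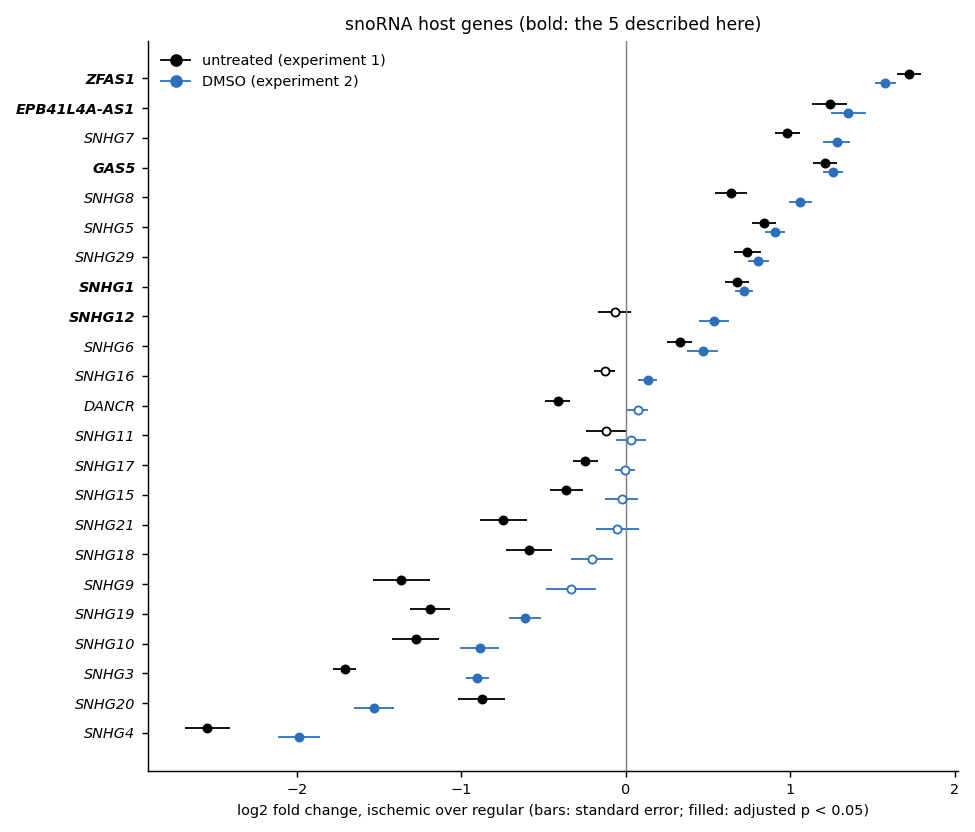
Log2 fold change of snoRNA host RNAs in ischemic against regular culture, for untreated and for DMSO-treated cells, with the 5 hosts among the members beside the 18 other listed hosts. The members lie from −0.07 to 1.72 in untreated cells, and the other hosts spread from −2.54 to 0.98.

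Partner genes were counted in the same way. Of 19 listed genes for paraspeckle proteins, 12 fell in untreated ischemic cells, and 4 rose and 12 fell with DMSO. The 12 are 63.2% of the list, against 35.2% of all genes that fell in each experiment. *RBM14*, whose protein is needed for paraspeckles to form, had the lowest log2 fold changes of the list, −1.59 and −1.24, while *NEAT1* rose. *PSPC1* fell by 0.73 and 0.41 and *SFPQ* by 0.41 and 0.15, and *NONO* had −0.04 in untreated cells and rose by 0.26 with DMSO. In ischemic culture VX745 and MK25 each lowered 13 of the 19 (68.4%), against 14.9% and 22% of all genes. Of 17 factors of nonsense-mediated decay, 8 rose and 3 fell in untreated and 9 rose and 3 fell in DMSO-treated ischemic cells. The shares that rose, 47.1% and 52.9%, stand against 35.2% and 34.4% of all genes. The share that fell was 17.6% in each, against 35.2%. *UPF1*, the central helicase, fell by 0.46 and 0.52, and the kinase *SMG1* rose by 1.05 and 0.46. In ischemic culture VX745 lowered 4 (23.5%) and raised 0 of the 17, against 14.9% of all genes lower. MK25 lowered 7 (41.2%) and raised 2 there, against 22% lower.

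Host RNAs such as *GAS5* begin with a 5′ terminal oligopyrimidine (TOP) tract, as do messengers of the translation machinery. Of 19 non-ribosomal genes with such a start, 12 rose and 2 fell in untreated ischemic cells, and 14 rose with DMSO. The shares that rose were 63.2% and 73.7%, against 35.2% and 34.4% of all genes. The elongation factor *EEF2* rose by 0.88 and 1.05 and *EEF1A1* by 0.62 and 0.89. The ends of the list were *EEF1D*, at 1.30 and 3.45, and *FAU*, at −0.44 and −0.03. *EEF1D* also had the lowest values of the list with VX745 in regular culture (−1.25, not called) and with MK25 in ischemic culture (−2.70). In ischemic culture VX745 lowered 17 and MK25 lowered 16 of the 19, against 14.9% and 22% of all genes. The median difference was −0.31 for both, beside −0.42 and −0.44 for *GAS5*.

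Other long noncoding RNAs tied to hypoxia or stress did not rise as the members did. The members and this list were both chosen with earlier results of these data known, which limits the comparison. Of 28 such RNAs, 16 were listed in the first and 17 in the second experiment. In untreated cells 2 rose and 6 fell, and with DMSO 3 rose and 8 fell. The shares that fell were 37.5%, near the 35.2% of all genes, and 47.1%, against 35.2%, and those that rose were 12.5% and 17.6%, against 35.2% and 34.4%. *PVT1*, transcribed beside *MYC*, rose by 1.27 in untreated cells and rose with DMSO as well, and *MIR17HG*, host of a microRNA cluster, fell by 1.36 and 1.58. Over all RNAs that RefSeq annotates as long noncoding, 216 of 761 rose and 257 fell in untreated cells, with a median of −0.07. With DMSO 254 of 841 rose and 260 fell, with a median of −0.02. In ischemic culture VX745 raised 115 (13.7%) of the 841 and lowered 33 (3.92%), against 14% and 14.9% of all genes. MK25 raised 177 (21.0%) and lowered 56 (6.66%), against 19.8% and 22%. The median difference of the 841 was 0.19 with VX745 and 0.21 with MK25. Of the 17 listed RNAs tied to hypoxia or stress, VX745 raised 3 (17.6%) and lowered 0 there. MK25 raised 4 (23.5%) and lowered 3 (17.6%) of these 17.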

How the data were processed

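RNA of 16 LN229 libraries was sequenced in pairs of 100-cycle reads after poly(A)-primed SMART-Seq and Nextera XT preparation. The authors trimmed the reads in Galaxy and aligned them to GRCh38 with HISAT2. They deposited log2 normalized CPM per library in 2 tables, 1 per experiment. Their own tests took counts. The counting program and its strand setting are not given in the sources used here. Samples were grouped by their titles, with 2 libraries in each of 8 groups.

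The deposited log2 values were used as they are. Undoing the logarithm gave whole reads for 100% of values (tolerance 0.05 read), and 3 reads, taken as the floor of detection, correspond to −2.71 to −2.16. The libraries carry no molecular identifiers, so reads may repeat a molecule, and this floor covers counting error only. Symbols matched 99.4% and 99.3% of identifiers, and positions came from RefSeq on GRCh38.p14. Because the values are normalized and on a log scale, limma 3.58.1 (R 4.3.3) was used, with 1 mean per group, a trend of the variance, two-sided p-values and Benjamini-Hochberg adjustment over all genes of each of 12 comparisons. The fit was tested on simulated data. A gene was called at an adjusted p under 0.05, and folds of 2 for culture and 1.5 for an inhibitor were counted besides. Likeness was sought among genes whose mean log2 value reached 1. Figures were drawn with matplotlib 3.10.9 in Python 3.11.15.

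The members and lists were chosen with earlier results of these data known. Genes named are the members, the ends of each list, list genes of known role chosen after their values were seen, neighbours within 5000 bases and the genes most like each member. Alternatives were a filter at 1 CPM, 1 CPM added before the logarithm, median centring, quantile normalization, no trend, a replicate block, voom on the recovered reads, only the groups compared, and each library left out.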

Additional observations from a re-analysis of the deposited data

Results flagged for a closer look

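In 9 cases the effect of an inhibitor differed between the 2 cultures by a test of that difference (limma, adjusted over all genes). The values are the log2 change in ischemic minus that in regular culture. With VX745 they were −0.55 for *NEAT1* (adjusted p = 0.00443), −0.80 for *MALAT1* (0.00755), −0.42 for *GAS5* (0.00594) and −0.54 for *ZFAS1* (0.0017). With MK25 they were −0.95 for *NEAT1* (1.12e-05), −0.93 for *MALAT1* (0.00097), −0.54 for *GAS5* (0.000333), −0.66 for *ZFAS1* (8.16e-05) and −0.46 for *EPB41L4A-AS1* (0.0367). Both inhibitors were set against the same DMSO libraries, so the 2 series of values are not independent of each other. In each of the 9, both inhibitor-treated ischemic libraries lay below both ischemic DMSO libraries. The 9 were picked by a test on these same libraries, so this order is no separate support. It also held for *SNHG1*, which did not pass, at 7.30 and 7.40 with VX745 and 7.45 and 7.48 with DMSO. No group holds enough libraries to look for a single library that stands apart.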

How the results depend on the processing

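No called member changed sign in any alternative, and none of the 32 changes between the cultures altered its call. Over 1192 combinations of member, comparison and alternative, 24 lost a call and 10 gained one, all in comparisons of the inhibitors. The number of members lower with VX745 in regular culture was 0, and 0 to 1 with a library left out. That of members lower with MK25 in regular culture went from 2 to 1 with only the groups compared, and lay at 1 to 3 with a library left out. Of MK25 against VX745 in regular culture, 1 was higher, with 0 without a trend and 2 with only the groups compared, and 0 to 1 were lower with a library left out. In ischemic culture 1 was higher with voom or with only the groups compared and 0 to 1 with a library left out, and of the lower 0 remained without a trend, 2 were called with only the groups compared, and 0 with any library left out. For the interaction with VX745 the members lower went from 4 to 1 without a trend. A lone library left in a group is taken to vary like the other groups.

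The correlation of the deviations of libraries with the same replicate number was −0.13 to 0.23 over 15 pairs of groups in the second experiment, where the number was not taken to pair them. It was 0.263 in the first, where 1 pair of groups cannot decide it. A replicate block changed no call of a member, and it gave 9576 called genes against 9540 in untreated and 9734 against 9759 in DMSO-treated cells. Over all genes the counts moved by over 1.5 times for VX745 in regular culture, from 47 to 6 without a trend, 13 with voom and 9 with only the groups compared, for MK25 there from 1712 to 879 without a trend and 754 with only those groups, for MK25 against VX745 there from 756 to 418 and 493, and for the interaction with VX745 from 1653 to 594 without a trend and 1026 after quantile normalization. With a library left out the count for VX745 lay at 10 to 346 in regular culture and at 2191 to 2794 in ischemic culture, where it was 4051 with all libraries. For MK25 in regular culture it fell to 823 without DMSO replicate 2, for MK25 against VX745 to 390 in regular culture without VX745 replicate 2 and from 2580 to 1323 in ischemic culture without VX745 replicate 2, and for the interaction with VX745 to 601 without ischemic VX745 replicate 1. The cause was not tested. With 2 libraries per group the intervals are wide for *LUCAT1*, whose regular libraries hold 31 to 95 reads.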
